A study of Mus musculus with 17 samples.

Results

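The late response of wild-type (WT) macrophages to lipopolysaccharide (LPS) was described by comparing 6 ATAC-seq peak lists, 3 made after 18 h of LPS and 3 made at 0 h, out of the 17 lists of the series. ATAC-seq reads out where the Tn5 transposase can enter chromatin, so a peak marks an open stretch of DNA. The cells were bone marrow-derived macrophages (BMDMs) of male WT mice on the C57Bl6/J background, aged 6 to 12 weeks, differentiated for 7 days in L929-conditioned medium and given 100 ng/ml LPS for 18 h or no LPS (0 h). As a check, 3 lists at 18 h and 3 at 0 h of BMDMs from whole-body Nur77 knockout (KO) mice, in which a CMV-driven Cre deleted the Nr4a1 gene, were read at the sites found in WT. The labels do not say whether replicates came from separate mice or cultures, so p-values measure the spread between lists, which may be technical.

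LPS is a component of the outer membrane of Gram-negative bacteria and is sensed by Toll-like receptor 4. Signalling first reaches transcription factors already present in the cell, such as NF-kB and AP-1, and then a second wave in which secreted interferon acts on the same cells through STAT and IRF factors, so that by the next day a macrophage makes antimicrobial enzymes such as inducible nitric oxide synthase and has left its resting, scavenging state. In macrophages, enhancers are held open by the lineage factor PU.1 together with C/EBP, AP-1 and RUNX factors, and signal-dependent factors add further open sites.

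The 6 lists held 46364 to 71456 distinct intervals, and the 3 lists at 0 h were all longer than the 3 at 18 h. The background read level that the peak caller used, recovered from the fold and p-value columns, gave a depth index of 8.38, 6.19 and 4.62 reads per kb in the 3 lists at 18 h and 6.12, 5.11 and 9.75 at 0 h. Every list was therefore reduced to its 46364 best peaks by p-value, the number in the shortest list (18 h replicate 3), and these are called equal-length lists. Peaks were ranked within a list, with rank 1 for the smallest p-value. Overlapping peaks of the equal-length lists were merged into 52615 sites seen in at least 2 lists, of which 30084 (57.2%) were open in all 6. All 6 full lists held a promoter peak, which is 1 with its summit at most 1 kb from a transcription start site (TSS), at 9 of 9 macrophage marker genes, among them Adgre1, Csf1r and Spi1. They were present in none at 5 of 5 T cell, 3 of 3 mast cell and basophil and 3 of 3 epithelial markers, while single markers of B cells (Ms4a1), neutrophils (S100a8), dendritic cells (Zbtb46), fibroblasts (Col1a1) and endothelial cells (Cdh5) had a promoter peak in all 6. Promoter peaks of Elane (neutrophils) and Pdgfra (fibroblasts) were in 3 full lists at 0 h and 1 at 18 h, those of Pax5 (B cells) and Flt3 (dendritic cells) in 2 and 0, and that of Kdr (endothelial cells) in 2 and 3. The part of such cells in any result was not tested.

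The sequences around the summits of representative sites are shown first because they carry the motifs that the comparison turns on. They were read from the mm10 genome (plus strand, 5′ to 3′) and cover the 100 bases on each side of the summit, which is base 101, except that the Ccl5 stretch stops before the first exon. Capitals mark every match to 1 of 12 motifs, sought on both strands: AP-1 (TGACTCA or TGAGTCA), NF-kB, ISRE (GAAANNGAAA, bound by IRF and STAT complexes), GAS (TTCNNNGAA, bound by STAT dimers), C/EBP (TTACNNAA or TTGCNNAA), PU.1 (GAGGAAGT), CTCF, NBRE (AAAGGTCA, bound by Nur77), RUNX (TGTGGTT), the E-box (CACGTG), CRE (TGACGTCA) and EGR (GCGTGGGCG). No motif in this list is contained in another, and a match is a description of the letters, not of binding.

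Sites gained or ranked higher at 18 h were chosen to show a promoter with an NF-kB match, a promoter with a C/EBP match, and the best-ranked named sites with an ISRE, NF-kB, C/EBP or AP-1 match.
Ccl5 promoter, NF-kB and PU.1 (chr11:83530519-83530685, plus strand): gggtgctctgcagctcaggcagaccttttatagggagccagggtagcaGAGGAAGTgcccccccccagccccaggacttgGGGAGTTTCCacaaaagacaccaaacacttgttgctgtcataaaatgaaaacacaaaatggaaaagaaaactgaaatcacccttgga
Orm2 promoter, C/EBP (chr4:63361597-63361797, plus strand): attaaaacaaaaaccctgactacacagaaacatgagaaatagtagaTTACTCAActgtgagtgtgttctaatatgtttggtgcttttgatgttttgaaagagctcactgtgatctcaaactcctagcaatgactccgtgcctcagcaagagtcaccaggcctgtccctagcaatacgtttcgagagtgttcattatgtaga
Ifi47 intron, ISRE on the minus strand (chr11:49083180-49083380, plus strand): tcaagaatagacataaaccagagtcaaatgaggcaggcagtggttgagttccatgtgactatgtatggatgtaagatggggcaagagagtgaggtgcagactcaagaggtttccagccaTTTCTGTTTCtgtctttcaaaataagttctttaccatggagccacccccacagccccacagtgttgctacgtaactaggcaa
Rbm47 intron, NF-kB (chr5:66041410-66041610, plus strand): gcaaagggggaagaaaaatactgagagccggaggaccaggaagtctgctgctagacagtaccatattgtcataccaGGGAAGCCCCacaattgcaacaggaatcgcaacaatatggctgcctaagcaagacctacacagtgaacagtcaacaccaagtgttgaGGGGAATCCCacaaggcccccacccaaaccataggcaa
Site in a Ptprm intron, nearest TSS Themis3, C/EBP (chr17:66713368-66713568, plus strand): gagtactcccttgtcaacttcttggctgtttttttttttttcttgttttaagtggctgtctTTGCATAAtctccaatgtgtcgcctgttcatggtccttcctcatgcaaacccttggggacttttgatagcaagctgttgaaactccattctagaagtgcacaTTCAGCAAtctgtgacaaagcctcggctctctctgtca
Cpne2 intron, AP-1 and NBRE (chr8:94564518-94564718, plus strand): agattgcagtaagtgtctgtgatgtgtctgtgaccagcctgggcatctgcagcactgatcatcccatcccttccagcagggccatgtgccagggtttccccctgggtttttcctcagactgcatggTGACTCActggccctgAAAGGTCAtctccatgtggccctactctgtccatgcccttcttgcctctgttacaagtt

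Sites lost at 18 h were chosen to show PU.1, RUNX and CTCF matches, and an AP-1 match to set beside that of Cpne2. The Vwa3a site was picked for its CTCF match after its values were seen.
Maml3 intron, PU.1 on the minus strand (chr3:51859281-51859481, plus strand): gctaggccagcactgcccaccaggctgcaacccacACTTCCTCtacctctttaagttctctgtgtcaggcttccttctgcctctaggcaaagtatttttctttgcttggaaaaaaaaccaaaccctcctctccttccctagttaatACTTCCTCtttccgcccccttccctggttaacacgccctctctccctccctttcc
Site upstream of Ptch1, RUNX and E-box (chr13:63642685-63642885, plus strand): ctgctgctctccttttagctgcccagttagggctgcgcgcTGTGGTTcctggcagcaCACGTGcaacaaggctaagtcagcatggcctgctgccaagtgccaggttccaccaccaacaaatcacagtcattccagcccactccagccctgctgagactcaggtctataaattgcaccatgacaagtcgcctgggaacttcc
Site upstream of Cnep1r1, AP-1 and C/EBP (chr8:88091714-88091914, plus strand): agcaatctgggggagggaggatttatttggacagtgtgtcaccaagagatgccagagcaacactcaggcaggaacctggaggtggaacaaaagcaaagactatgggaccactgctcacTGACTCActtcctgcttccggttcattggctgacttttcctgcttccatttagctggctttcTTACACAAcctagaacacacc
Vwa3a intron, CTCF on the minus strand (chr7:120754766-120754966, plus strand): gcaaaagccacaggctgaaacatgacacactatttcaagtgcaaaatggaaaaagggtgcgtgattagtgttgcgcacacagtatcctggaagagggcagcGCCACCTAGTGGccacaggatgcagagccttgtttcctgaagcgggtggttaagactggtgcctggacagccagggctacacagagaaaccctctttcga

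After 18 h of LPS, 3032 sites had a peak in all 3 WT equal-length lists at 18 h and in none at 0 h (gained), which is 5.76% of the 52615 sites. Conversely, 3208 sites (6.1%) were open in all 3 lists at 0 h and in none at 18 h (lost). A gained site near Ifit3, an antiviral interferon-induced gene, and the promoter of the chemokine gene Ccl5 were among the strongest peaks of the genome at 18 h with no peak at all at 0 h. The strongest lost sites lay near Klf4, Hspa9 and Sesn1, and were weaker in their own lists than the strongest gained sites. In bulk ATAC-seq, fewer cells with an open site and a less open site in every cell cannot be told apart. The count of lost sites cannot be set against that of gained sites, because the shortest list was at 18 h: 1248 gained sites (41.2%) and 2066 lost sites (64.4%) were absent from the full lists of the other side too, and with all deposited peaks, where the lists at 0 h are longer, the counts were 1592 gained and 5731 lost.

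The leading gained site lay 6176 bp upstream of the nearest TSS of Ifit3 (ENSMUSG00000074896.3), between genes of the Ifit cluster at chr19:34572638-34579779 (mm10). Its best peak ranked 2648, 3014 and 1816 in the 3 lists at 18 h, and none of the 3 full lists at 0 h held a peak. The next was the Ccl5 promoter (ENSMUSG00000035042.2; chr11:83520817-83531094), with ranks of 2623, 2299 and 3724 at 18 h and no peak at 0 h, and its interval also covered the TSS of the neighbouring gene Heatr9. Both sites were thus near the top of the lists at 18 h and below the threshold of the peak caller at 0 h.

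Further gained sites sat in introns or far upstream. An intronic site of Rbm47, which encodes an RNA-binding protein, at chr5:66040942-66042033 ranked 8345, 5952 and 6629 at 18 h, and at 0 h it was absent from replicate 1 and ranked 57582 and 71295 in the other two. A site 21644 bp upstream of Pdcd1lg2, a ligand of the inhibitory receptor PD-1 (chr19:29387168-29392072), ranked 7938, 8584 and 6550 at 18 h and was found at 0 h only in replicate 3, at rank 67645. An intronic site of Ell2, a transcription elongation factor (chr13:75753849-75754866), ranked 9459, 10304 and 10339 and had no peak in any list at 0 h. In each of these the groups did not overlap, as the definition of a gained site requires. The remaining sites among the 15 best-ranked lay at Pigk, Wdtc1, Btg1, Cpne2, Ubr4, Themis3, Zfp811, Foxp1 and Lgals3bp.

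Among gained sites with no peak in any full list at 0 h, the best-ranked after Ifit3, Ccl5 and Ell2 lay at Arhgef3, Ifi47, St3gal5, Fam3b, Id2, Cfb and AL607142.1. The Ifi47 site, 3420 bp from the TSS of this interferon-inducible GTPase (chr11:49082656-49083984), ranked 13236, 11489 and 12874 at 18 h. The promoter of Cfb, which encodes complement factor B (chr17:34861505-34863720), ranked 13615, 14109 and 11620, and held ISRE, GAS and C/EBP matches near its summit.

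**Figure D1:**
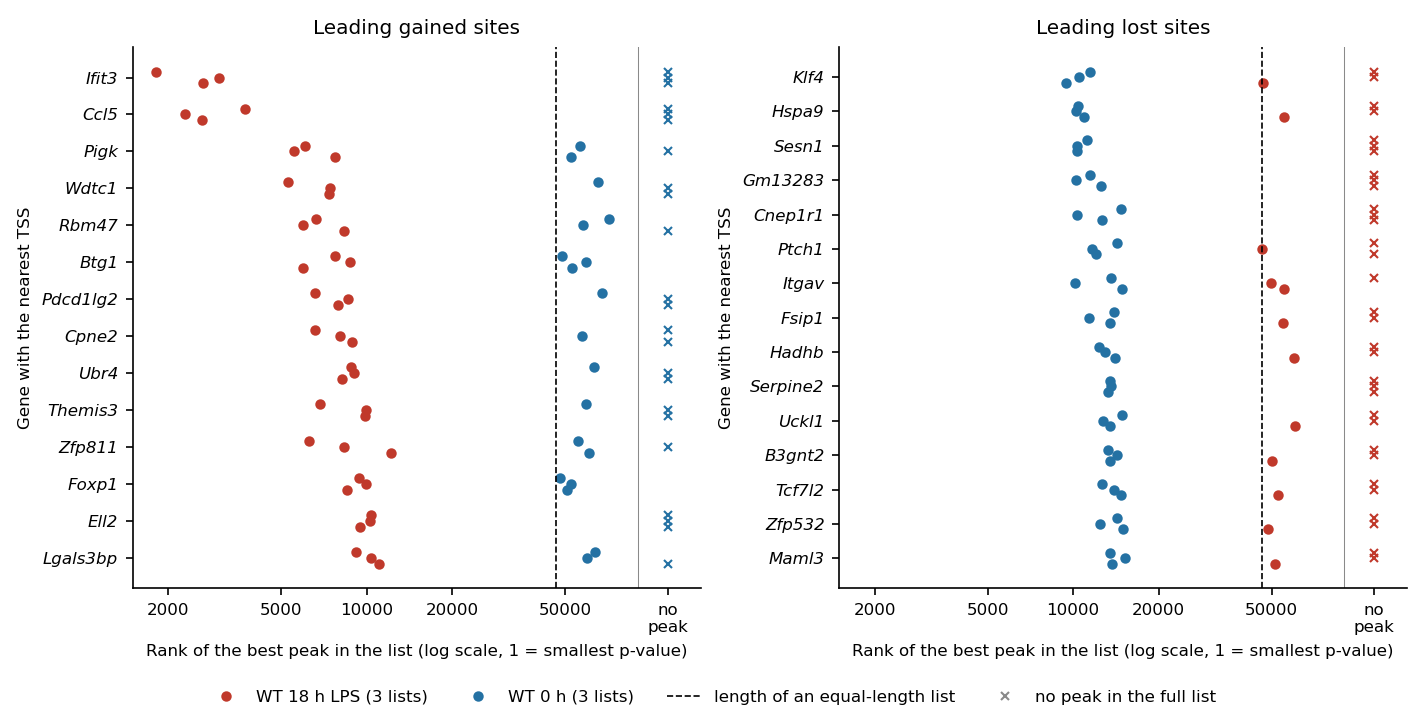
Ranks of the best peak at leading gained (left, 14 of the 15 best-ranked) and lost (right, the 15 best-ranked) sites in each of the 6 WT lists. The x axis is the rank on a log scale, each point is 1 list, crosses are lists with no peak, and the dashed line is the list length of 46364. Gained sites reached ranks of 1816 to 3724 at Ifit3 and Ccl5, whereas no lost site ranked better than 9419 at 0 h.

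The best-ranked lost site was 209079 bp from Klf4, which encodes a transcription factor of monocyte differentiation (chr4:55741042-55741996). It ranked 9419, 10506 and 11454 at 0 h, and at 18 h only replicate 1 held a peak, at rank 46552. A site assigned to Sesn1, which encodes a stress-induced inhibitor of mTORC1 signalling, lay in an intron of Armc2 (chr10:41933034-41934170) and ranked 10340, 10309 and 11203 at 0 h with no peak in any list at 18 h. An intronic site of Serpine2, a secreted serine protease inhibitor (chr1:79803231-79804234), ranked 13218, 13553 and 13537 at 0 h and likewise had no peak at 18 h. The Cnep1r1 site (chr8:88091593-88092119) ranked 12654, 10347 and 14689 at 0 h and also had none at 18 h. The other lost sites of the leading 15 were at Hspa9, Gm13283, Ptch1, Itgav, Fsip1, Hadhb, Uckl1, B3gnt2, Tcf7l2, Zfp532 and Maml3. The distances of Klf4, Tcf7l2 (197148 bp) and B3gnt2 (164780 bp) show that the nearest gene is a label of position only. Those added when a peak in any full list at 18 h was not allowed were Rasa1, Tgif1, Hdgfl3, Rasal1, Sipa1l1 and 1600014C23Rik.

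Mean ranks over the 3 lists of a side were under 10000 for 13 gained and 0 lost sites, under 20000 for 270 and 101, and under 30000 for 1126 and 764. Gained and lost sites were both distal. Promoters made up 3.56% of gained sites (108 sites) and 6.36% of lost sites (204), against 22.2% of all sites (11671). Introns held 50.3% of gained, 44.9% of lost and 39.3% of all sites, and the median distance to a TSS was 18035, 18590 and 11187 bp. The sites were also narrower than the rest, with a median width of 695 bp when gained and 591 bp when lost against 921 bp for all sites.

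Sites open in every list were compared by strength, taken as their place in the list. A rise or fall is thus relative to the other sites and need not mean more or less open chromatin. At 33602 sites with a peak in all 6 full lists, ranks were turned into normal scores within each list and compared with limma (Benjamini-Hochberg adjusted p below 0.05). Of these, 5857 (17.4%) ranked higher and 5926 (17.6%) lower at 18 h, and the 3 values of 1 group lay wholly above those of the other at 5671 and 5714 of them. Normal scores of lists of the same time correlated with r of 0.921 to 0.942 at 18 h and 0.966 to 0.97 at 0 h across sites, which are not independent replicates, and those of different times with 0.816 to 0.837. A site that entered only through the lists of 1 time had to differ, so calls were also counted over the 31835 sites in at least 2 equal-length lists at each time, a restriction chosen after seeing the data. Of these 5124 (16.1%) ranked higher and 5828 (18.3%) lower. The 33602 sites include 664 gained sites with a weak peak in every full list at 0 h, whose direction was fixed by their choice, and 411 of the 5857 are such sites. No lost site could be tested, since the equal-length list of 18 h replicate 3 was its whole list.

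The 12 shared sites with the largest rise were all gained sites, so their values are given as a description with no test. The first lay 39012 bp from the nearest TSS of Parp14, an interferon-induced ADP-ribosyltransferase (chr16:35824150-35837001). Among the 33602 shared sites it ranked 13485, 15938 and 13467 at 18 h and 33564, 33566 and 33491, nearly last, at 0 h, a difference of 3.13 ± 0.27 (SE, n = 3 lists per group) in normal score. The promoter of Orm2, an acute-phase plasma protein (chr4:63361120-63364289), ranked 16263, 12625 and 13679 at 18 h and 33580, 33474 and 33298 at 0 h (difference 2.94 ± 0.27). At an intronic site of its neighbour Orm1, 1163 bp from the TSS, the difference was 2.62. An intronic site of Irgm1, an interferon-induced GTPase of the defence against intracellular bacteria, had a difference of 2.66. A site where the annotated spans of Chrnb2 and of Adar, an interferon-inducible RNA-editing enzyme, overlap had one of 2.77. The other sites of the 12 were at Htr2a, Btg1, Syt2, Bcl2l14, Pigz, Lrrc4 and Pnpla5.

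Among shared sites that fell, an intronic site of Cd9, a tetraspanin of the cell surface (chr6:125470849-125472419), ranked 33508, 31750 and 33164 at 18 h against 9147, 9521 and 10024 at 0 h. Its difference was -2.77 ± 0.24 (SE, n = 3 lists per group). The sites of this paragraph were chosen for the largest falls, so their values too are a description with no test. An intronic site of Hs3st1, a heparan sulfate sulfotransferase, fell by 3.04, a site between genes 125150 bp from Hs3st2 by 2.49, and an intronic site of Chst11, 116144 bp from its TSS, by 2.34. A site 19370 bp from Mfng, which encodes a glycosyltransferase acting on Notch, fell by 2.44, and the promoter of Rab40b by 2.38. The other sites were at Sec61b, Pacsin2, Cyp27a1, Myo5a, Zfp422 and Tmc3, of which all but Tmc3 were in at most 1 equal-length list at 18 h.

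Promoters changed rank less often than distal sites, and more of them ranked lower than higher. These shares are relative, since promoters and distal sites were ranked together. Of 10600 promoter sites tested, 857 (8.08%) ranked higher and 1505 (14.2%) lower, whereas of 23002 sites over 1 kb from a TSS 5000 (21.7%) ranked higher and 4421 (19.2%) lower. Over sites in at least 2 equal-length lists at each time the shares were 7.82% and 14.2% of 10461 promoter sites and 20.1% and 20.3% of 21374 sites over 1 kb from a TSS. The promoter share of the equal-length lists as a whole was 24.9% ± 0.563 (SD, n = 3) at 18 h and 24.9% ± 0.147 at 0 h (exact permutation test, two-sided p = 0.9).

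Gained sites lay in groups along some genes. Of 14660 genes with a site within 100 kb of a TSS, 2044 (13.9%) were nearest to at least 1 gained and 2348 (16%) to at least 1 lost site, and 437 to both. Acsl1, which activates long-chain fatty acids, had 11 gained sites of 20, the most of any gene. They ran from 48147 bp upstream through the gene to just past its end (chr8:46422356-46542864), and 10 of the 11 had no peak in any full list at 0 h. Ranks of the best of them were 18768, 21016 and 22135. At Nos2, the inducible nitric oxide synthase, 7 of 12 sites were gained (chr11:78875981-78946008). The best, 44543 bp upstream, ranked 18860, 15077 and 13191 with no peak at 0 h, and 5 of the 7 were intronic. In WT 18 h replicate 1, the deepest of the lists at 18 h, peaks over the bodies of these genes ran together into long intervals, and in the other lists they were split.

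Adgre1, a macrophage marker gene, had 9 gained sites of 21, and the 7 gained sites assigned to Vmn2r120 (chr17:57451954-57489693) lay over or next to the end of Adgre1 (chr17:57358691-57483527). Tm9sf3 had 8 gained sites, Rbm47 and Prex1 7 each, and Fyb and the NF-kB inhibitor gene Tnip1 6 each. Lost sites were more dispersed. Foxp1 had 6, beside 4 gained, Sesn1, Mical2, Tns1, Tmem163 and Otulin had 5 each, and Pde4d, Col14a1, Cacna1a and Efr3b 4 each. The 5 lost sites of Sesn1 lay in the last part of the gene and beyond it (chr10:41882571-41934170), and 3 of them had no peak in any list at 18 h. At Tmem163 the 5 lost sites were all intronic, 50431 to 81687 bp from a TSS.

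**Figure D2:**
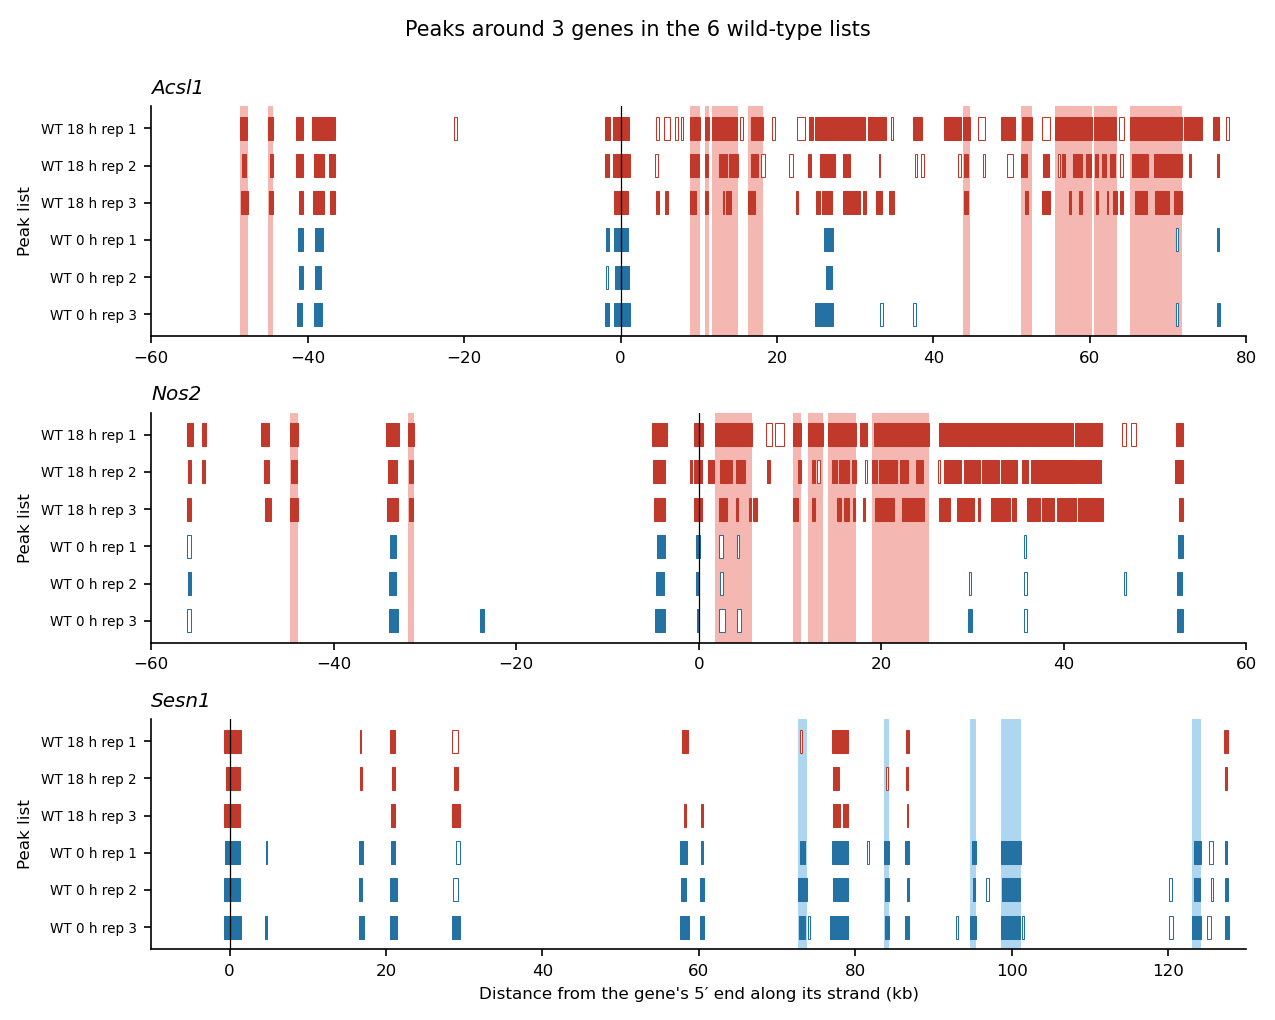
Peaks of the 6 WT lists around Acsl1, Nos2 and Sesn1, by distance in kb from the gene's 5′ end along its strand. Filled bars are peaks in the equal-length lists, open bars other deposited peaks, red is 18 h and blue 0 h, and shading marks sites gained (pink) or lost (light blue). The promoters were open in all 6 lists, while 11 and 7 gained sites flanked or covered Acsl1 and Nos2, and 5 lost sites lay toward and past the end of Sesn1.

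Genes were then grouped into 9 lists of macrophage function. The lists and their members were chosen with earlier results of these data known. Their shares set beside those of all genes are thus a description, not an independent test. Members named beyond the 5 best-ranked gains and losses of a list were chosen after their values were seen. Interferon-response genes had the largest share of gained sites of the 9 lists. Of 56 annotated members, 55 had a site, and 38 (69.1%) had at least 1 gained site, against 13.9% of all genes. The lists held 3.79 to 7.66 sites per gene against 3.32 over all genes, and a gene with more sites has more chances of a gained or lost one, so shares of sites are also given. Over all genes 5.59% of sites were gained and 5.82% lost. Of the 227 interferon sites, 71 (31.3%) were gained and 2 (0.881%) lost. Of 118 shared sites 81 (68.6%) ranked higher and 3 lower, against 17% and 17.6% over all genes. The 81 include 8 gained sites, and of the 100 sites in at least 2 equal-length lists at each time 68 (68%) ranked higher, against 15.7%. Promoters could be tested at 45 members: 40 ranked higher and 0 lower by limma (0 also at an unadjusted p below 0.05), and the differences ran from 0.02 to 1.76 with a median of 0.81. Over all 10600 promoter sites, 8.08% ranked higher and 14.2% lower. All 45 were in at least 2 equal-length lists at each time, whereas those of Il27, Traf1 and Ass1, which are among the promoters counted higher below, were not. The promoter of Irf7, the factor that amplifies interferon production and is kept in the list of signalling factors, moved from ranks of 16624, 17167 and 13338 at 0 h to 1007, 1256 and 1260 at 18 h (difference 1.73 ± 0.09, limma adjusted p = 1.91e-11). Mx1, a dynamin-like antiviral GTPase, moved from 15823, 15147 and 14618 to 1194, 1302 and 1708 (1.62 ± 0.08). Gbp2, a GTPase that attacks the vacuoles of intracellular microbes, moved from 30218, 29262 and 26347 to 7299, 9785 and 7635 (1.76 ± 0.14). In each of the 3 the groups were far apart. Ifit1, Zbp1 and Rsad2 promoters rose by 1.43, 1.38 and 1.35.

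The Gbp5, Gbp6, Ifi44, Tgtp1 and Slfn4 promoters were themselves gained. The Gbp6 promoter ranked 17650, 20028 and 24458 at 18 h with no peak at 0 h, and that of Gbp5 ranked 14662, 24987 and 23632, against 54920 and 53427 in 2 lists at 0 h. Distal gained sites were found near Ifit1, Slfn5, Trim25, Gbp7 and Oas2 among others. The promoters of Dtx3l, Aim2, Ifi47, Gbp7 and Samd9l did not pass the test, with differences of 0.02, 0.06, 0.07, 0.25 and 0.42. The 1 member with lost sites was Usp18, whose intronic site ranked 34822, 42967 and 39362 at 0 h.

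Of 40 cytokine and chemokine genes with a site, 18 (45%) had a gained and 6 (15%) a lost site, against 13.9% and 16% of all genes. Of their sites 16.6% were gained and 3.63% lost, against 5.59% and 5.82%. Of their 23 promoters tested, 12 (52.2%) ranked higher and 3 (13%) lower, against 8.08% and 14.2% of all promoters. After Ccl5, the best-ranked gains were near Il1rn, the interleukin 1 receptor antagonist, Il10, an anti-inflammatory cytokine, Il1a and Il27. The Il10 site, 22118 bp upstream (chr1:130997394-130998417), ranked 18219, 16958 and 19588 with no peak at 0 h. A site 92704 bp upstream of Il6 (chr5:29920070-29920791) ranked 21555, 21831 and 22155 with none at 0 h, and a site 39386 bp upstream of Il1b ranked 18258, 21873 and 19296 with none at 0 h. The Cxcl10 promoter rose by 1.23 ± 0.10. The Tnf promoter was already among the strongest shared sites at 0 h, with ranks of 1600, 2611 and 2096, and was at 2306, 2324 and 1241 at 18 h (difference 0.04, adjusted p = 0.77, limma). The best-ranked loss was 22091 bp from Csf1, the macrophage growth factor, where ranks of 21589, 16720 and 20566 at 0 h had no counterpart at 18 h. The promoter of Ccl6, a chemokine of resting macrophages, fell by 1.55 ± 0.45 (limma, adjusted p = 0.0269).

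Among 47 NF-kB, IRF and STAT factors and feedback regulators, 18 (38.3%) had gained and 10 (21.3%) lost sites, where 13.9% and 16% of all genes did. Per site the shares were 11.8% gained, above the 5.59% of all genes, and 4.15% lost, below the 5.82%. Of 41 promoters 13 (31.7%) ranked higher and 5 (12.2%) lower, beside 8.08% and 14.2% of all promoters. Gains included the promoter of the NF-kB target Traf1 (chr2:34956772-34959331; ranks 12280, 12994 and 12971 at 18 h, 54317, none and 70158 at 0 h) and sites near Tnfaip3, Traf2 and Bcl3. The promoter of Socs3, a feedback inhibitor of cytokine receptors, rose by 0.84 ± 0.08. The promoter of Irf4 fell by 0.99 ± 0.19. Of 35 AP-1, ATF, C/EBP and immediate-early genes, 13 (37.1%) had gained and 10 (28.6%) lost sites. With 7.66 sites per gene, 9.33% of their sites were gained and 4.48% lost, against 5.59% and 5.82%, so the share of lost sites was not above that of all genes. Of 30 promoters 3 (10%) ranked higher, near the 8.08% of all promoters, and 11 (36.7%) lower, where 14.2% of all promoters did. Cebpb had 4 gained sites, up to 81444 bp downstream, and its promoter rose by 0.33. The promoter of Cebpa, the family member of steady-state myeloid cells, went from ranks of 569, 740 and 694 at 0 h to 4699, 3695 and 3805 (difference -0.89 ± 0.09, limma adjusted p = 8.52e-08). The promoter of Myc, a driver of cell growth, went from 7581, 8588 and 6443 to 28289, 23722 and 31528 (-1.79 ± 0.19, limma adjusted p = 1.89e-06). For Fos the difference was -0.03 and did not pass the test. Near Jun, Batf, Klf6 and Bhlhe40, gained sites lay 14383 to 96643 bp from a TSS.

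The promoter of Nr4a1, which encodes Nur77 itself, ranked 9497, 12550 and 13914 among shared sites at 0 h and 29736, 23780 and 21768 at 18 h in WT (difference -1.08 ± 0.17, limma adjusted p = 8.02e-05). A weak site inside the gene, 2772 bp from a TSS, was gained. In KO, all 3 lists at 0 h and none of the 3 at 18 h held a peak at this promoter, so peaks at this gene do not tell the genotypes apart at 0 h.

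Late effector and secreted defence genes had gains at 29 of 50 members (58%) and losses at 5 (10%), against 13.9% and 16% of all genes. Of their sites 19.2% were gained and 2.35% lost, where 5.59% and 5.82% were over all genes. Of 27 promoters, 12 (44.4%) ranked higher and 1 (3.7%) lower, against 8.08% and 14.2% of all promoters. Promoter sites with no peak at 0 h, such as those at Ccl5 and Cfb, had no score and were not compared. Of the scored promoters in the 9 lists, the Nos2 promoter had the largest rise. It ranked 30791, 31550 and 31528 among shared sites at 0 h and 11812, 7085 and 10058 at 18 h, a difference of 2.06 ± 0.16 (limma, adjusted p = 2.72e-09). The promoter of the arginine transporter gene Slc7a2 rose by 1.25 ± 0.18. The promoter of complement C3 rose by 1.09 ± 0.14. Gained sites lay near Hp (haptoglobin; ranks 14266, 11965 and 11827 at 18 h), Saa3, Cp and Lbp, and at the promoter of the siderophore-binding Lcn2, which ranked 30332, 30876 and 21232 with no peak at 0 h. Ptgs2 and Ptges, both of prostaglandin synthesis, had gained sites, whereas the promoter of Ptgs1, the constitutive cyclooxygenase, fell by 1.07 ± 0.16.

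Homeostatic macrophage and phagocyte genes showed both directions, with gained sites at 9 (19.6%) and lost sites at 13 (28.3%) of 46 members, against 13.9% and 16% of all genes. Per site the shares were 7.59% and 6.6%, near the 5.59% and 5.82% of all genes. Adgre1 alone held 9 of the 23 gained sites. Of 32 promoters, 7 (21.9%) ranked higher and 15 (46.9%) lower, where 8.08% and 14.2% of all promoters did. The promoter of Cd36, a scavenger receptor for oxidised lipoproteins, went from ranks of 19522, 17514 and 15071 at 0 h to 32199, 33025 and 28620 (difference -1.59 ± 0.24, limma adjusted p = 2.04e-05). A further Cd36 start site was lost, with ranks of 32809, 24463 and 30603 at 0 h and no peak at 18 h. The promoter of the lectin gene Clec10a went from 4212, 4061 and 4474 to 22125, 19868 and 22008 (-1.49 ± 0.09). Promoters of Pf4, Itgax, Dab2 and Trem2 fell by 1.22, 1.07, 1.04 and 0.68. The promoter of the mannose receptor gene Mrc1 was lost, with ranks of 33672, 30241 and 27337 at 0 h against 51908 in 1 list at 18 h. Gains were at Sirpa, Spi1, Adgre1 and Tlr13 among others.

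For lipid and cholesterol genes, 6 of 35 (17.1%) had gained and 6 (17.1%) lost sites, near the 13.9% and 16% of all genes. Of their 225 sites 18 (8%) were gained and 9 (4%) lost, against 5.59% and 5.82% over all genes. Acsl1 alone held 11 of the 18 gained sites. Of 31 promoters 3 (9.68%) ranked higher, near the 8.08% of all promoters, and 8 (25.8%) lower, beside 14.2%. The promoter of Lpl, the lipoprotein lipase, fell by 1.69 ± 0.17, from ranks of 5621, 5217 and 5845 to 20411, 29507 and 25505. Gains near Abca1, Fabp5 and Acsl1 and losses near Srebf1, Pparg and Insig1 were found. Antigen presentation genes had 6 promoters higher (42.9%) and 0 lower of 14 by limma (0 also at an unadjusted p below 0.05), with differences from -0.11 to 0.63, against 8.08% and 14.2% of all promoters. With 14 promoters, the 0 says little. In the cell cycle list 3 members of 31 (9.68%) had gained and 5 (16.1%) lost sites, against 13.9% and 16% of all genes, and of 29 promoters 3 (10.3%) ranked higher and 5 (17.2%) lower, both near the shares of all promoters. Within it the Ccnd3 promoter fell by 1.17 ± 0.14 and that of Tyms by 0.87 ± 0.23. Without WT 0 h replicate 3, 1 lipid promoter was higher and 5 were lower. Leaving out WT 0 h replicate 1 left 0 cell cycle promoters higher and 2 lower, while the 40 interferon promoters were 40 or 41 without any single list.

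**Figure D3:**
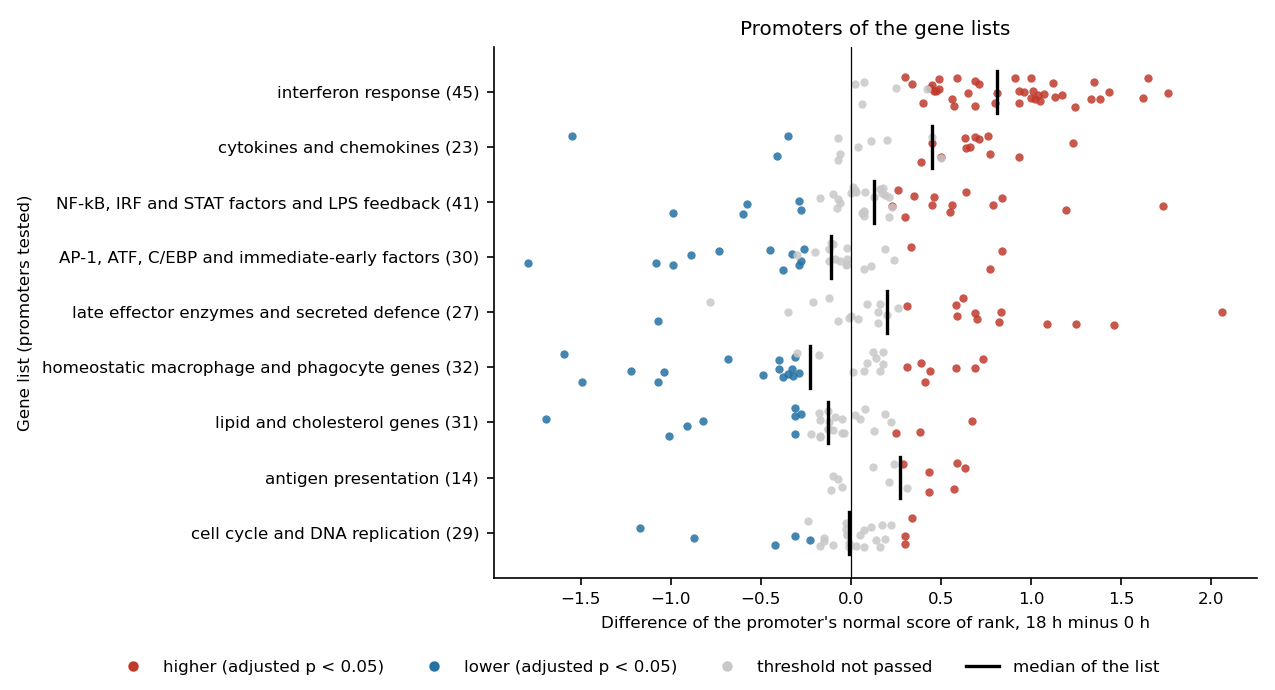
Difference of the promoter's normal score of rank (18 h minus 0 h; 0 means no change of place in the list) for the genes of 9 lists, 1 point per gene, coloured where limma's adjusted p was below 0.05. Vertical bars are list medians, which ran from 0.81 for interferon-response genes to -0.23 for homeostatic genes. Nos2 (2.06) and Myc (-1.79) were the extremes.

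NF-kB, ISRE and C/EBP matches were more frequent at gained than at lost sites, and CTCF and PU.1 matches less frequent. An NF-kB match lay within 100 bp of the summit at 9.37% of gained sites (95% Wilson interval 8.38 to 10.5) and 1.56% of lost sites (1.18 to 2.05), against 3.86% of all sites. For the ISRE the shares were 7.52% (6.63 to 8.51), 2.24% (1.79 to 2.82) and 3.69%. For C/EBP they were 30.2% (28.6 to 31.8), 13.9% (12.7 to 15.1) and 18.3%. CTCF, which anchors chromatin loops, went the other way, with 0.231% (0.112 to 0.476) of gained sites, 6.36% (5.57 to 7.26) of lost sites and 4.41% of all sites. The PU.1 match was at 5.21% of gained, 10.6% of lost and 8.18% of all sites, and RUNX at 6.7%, 8.76% and 6.87%. The intervals cover counting error only, since sites of 1 genome are not independent replicates.

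Shared sites, whose higher group includes 411 gained sites, showed the same order for these 5 motifs. Among sites ranked higher and lower, NF-kB was at 7.96% and 2.48%, ISRE at 7.67% and 2.02%, C/EBP at 27.5% and 14.4%, CTCF at 0.444% and 3.73%, and PU.1 at 7.85% and 9.96%. AP-1 matches were at 16.0% of gained, 15.6% of lost and 14.6% of all sites, and at 19.7% and 15.2% of shared sites ranked higher and lower. GAS was at 6.53% of gained, 5.39% of lost and 5.61% of all sites. The Nur77 motif NBRE was near 1% throughout, with 0.923%, 0.998% and 1.02%. The E-box was at 2.94%, 3.83% and 5% and CRE at 0.297%, 0.405% and 0.884%. EGR had 0 matches in 3032 gained sites, which allows up to 0.127% (Wilson), with 0.125% of lost and 0.251% of all sites. Because promoters are rare among gained and lost sites, the shares were also taken over 1 kb from a TSS, where NF-kB was at 9.4% of gained and 1.5% of lost sites against 3.85% of all distal sites, and CTCF at 0.205%, 6.42% and 5.31%. There AP-1 was at 16.3% of gained and 16.3% of lost sites, below the 17.7% of all distal sites, whereas with promoters included both shares were above that of all sites. EGR was at 0% of gained (Wilson upper limit 0.131%), 0.0999% of lost and 0.0684% of all distal sites, with overlapping intervals.

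**Figure D4:**
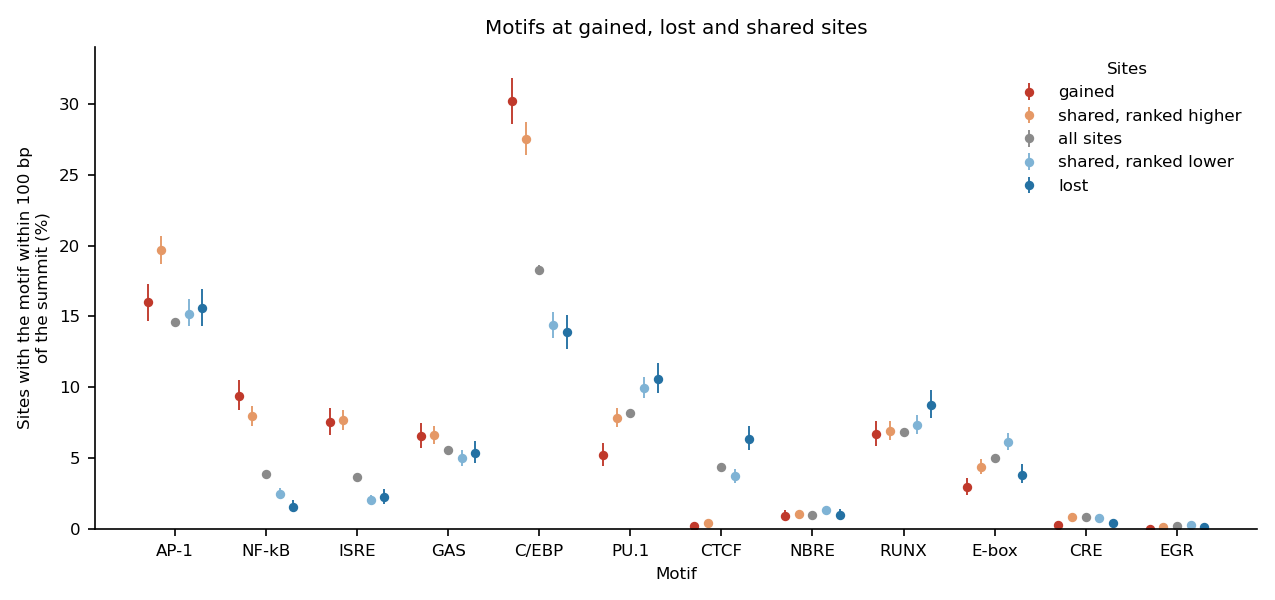
Share of sites (%) with each of 12 motifs within 100 bp of the summit, for gained, lost and all sites and for shared sites ranked higher or lower at 18 h. Bars are 95% Wilson intervals. C/EBP (30.2% of gained, 13.9% of lost) and NF-kB (9.37%, 1.56%) lie apart in 1 direction and CTCF (0.231%, 6.36%) in the other.

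Over whole equal-length lists the shift was smaller. NF-kB matches were at 4.32, 4.31 and 4.3% of peaks at 18 h and 3.21, 3.19 and 3.22% at 0 h, a difference of 1.11 percentage points. C/EBP matches were at 19.2, 18.9 and 18.3% against 16.3, 16.7 and 16.5% (2.28 points), and ISRE matches at 4.05, 3.96 and 3.96% against 3.08, 3.28 and 3.24% (0.789 points). For these 3 and for PU.1 (-1.13 points), RUNX (-0.553), CTCF (-1.8), NBRE (-0.0503) and E-box (-0.209) the groups did not overlap, which gives p = 0.1 in the two-sided exact permutation test, the smallest that 3 against 3 lists allow, so no motif could reach 0.05. CTCF shares at 18 h were 3.58, 3.19 and 2.85%, in the order of the depth index of those lists (8.38, 6.19 and 4.62), against 5.04, 4.95 and 5.02% at 0 h. The part of depth in this difference was not tested. AP-1 was at 14.6, 14.5 and 13.5% against 14.9, 14.9 and 14.6%, with overlapping groups (difference -0.578 points, exact permutation p = 0.2).

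The KO lists, which took no part in choosing the sites, gave the same directions. Their depth index was 0.72 to 1.76 reads per kb except for 7.65 in KO 0 h replicate 1, and KO 18 h replicate 1 had narrow peaks (median 135 bp), so each was reduced to its 27429 best peaks. Of the 3032 sites gained in WT, 22.3, 35.4 and 34.6% had a peak in the 3 KO lists at 18 h, against 0.066, 0.198 and 1.15% at 0 h. Of the 3208 lost sites, 5.61, 1.47 and 0.561% had a peak at 18 h against 18.9, 19.3 and 16.2% at 0 h. In percentage points the mean differences were 30.3 and -15.6. They were 9.86 and -10.6 when a peak had to cover 50% of a site, and 21.5 and -46.4 with all deposited KO peaks, where for gained sites the groups overlapped (exact permutation p = 0.4). Over all sites the shares were 45% ± 2.74 (SD, n = 3) and 48.8% ± 2.52. The leading gained sites at Ifit3, Ccl5, Rbm47 and Pdcd1lg2 were in 3 of 3 KO equal-length lists at 18 h and 0 of 3 at 0 h, although 1 full KO list at 0 h held a peak at Ifit3 and 1 at Pdcd1lg2. The median normal score of the 2511 sites called higher in WT with a peak in all 6 KO lists was 0.0937 at 18 h and -0.659 at 0 h, and that of 2234 called lower was -0.447 and 0.136. In the equal-length lists each of these 4 differences between times (gained, lost, higher and lower) had p = 0.1 in the two-sided exact permutation test, the smallest possible. Of the sites called higher in WT, 91.4% also had a higher mean score at 18 h in KO, compared with 47.2% of all 15359 sites with values in both genotypes. Of those called lower it was 9.85%. Whether the size of the response differs between genotypes was not tested at single sites, since most KO lists are shallower than the WT lists.

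**Figure D5:**
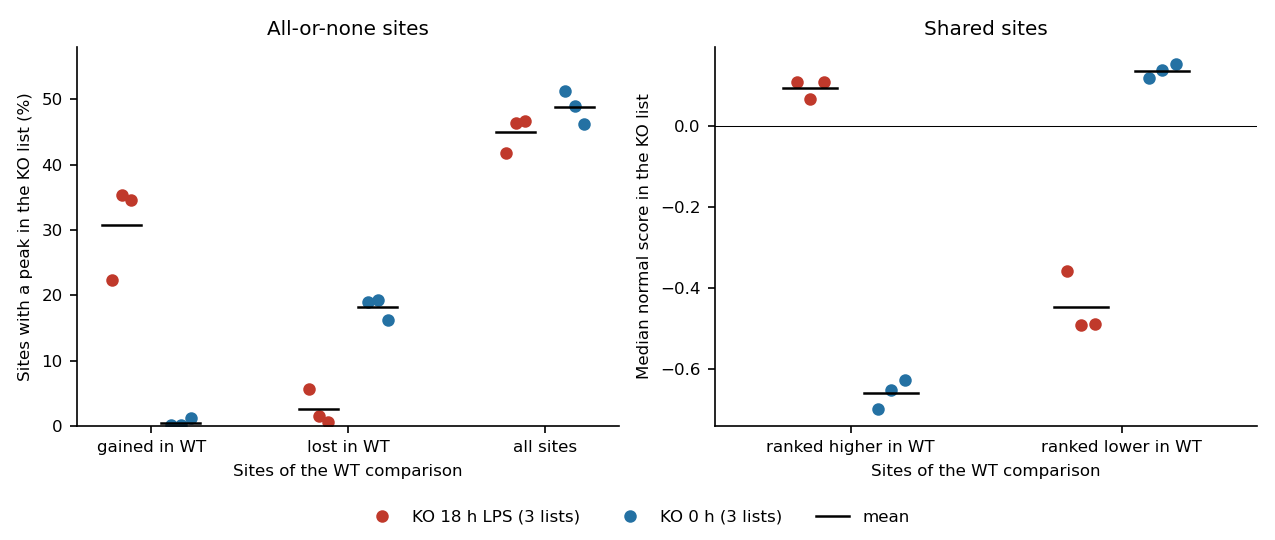
Left, share of sites (%) with a peak in each KO equal-length list for sites gained in WT, lost in WT and all sites. Right, median normal score in each KO list of shared sites ranked higher or lower in WT; points are lists and bars means. From 22.3 to 35.4% of the gained sites had a peak at 18 h and at most 1.15% at 0 h, and for lost sites the order was the reverse.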

How the data were processed

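Chromatin accessibility was measured by ATAC-seq, and 12 of the 17 deposited narrowPeak lists were used. The 5 lists made after 1 h of LPS were not used here. Per the labels and the study's methods, the authors trimmed reads with cutadapt 2.6, aligned them to mm10, kept reads of mapping quality 20 or more without duplicates or mitochondrial reads, and called peaks in each sample at q below 0.001. The deposited columns used were the fold ratio over background and the −log10 p-value of each summit. DiffBind 3.0.15 is named in the submitters' processing notes, and no comparison of the authors was used.

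Entries with the same interval were reduced to that with the smallest p-value, and each list was ranked by it, with ties broken at random (seed 1). Equal-length lists held 46364 peaks in WT and 27429 in KO. Merged peaks (1 bp overlap or more) seen in at least 2 WT equal-length lists were sites. Each site was given to the protein-coding gene with the nearest TSS (GENCODE M21, alternative start sites included), and to no gene beyond 100 kb when genes were counted. Normal scores of rank were fitted with limma 3.58.1 (R 4.3.3; trend and robust) over 33602 sites, after the script was tested on simulated data. List shares were compared by the two-sided exact permutation test (20 regroupings). Alternatives were another list length, all deposited peaks, 50% cover, a 50 bp motif window, other limma settings and leaving out each list. Named sites were the 15 best-ranked gained and lost, the 10 best absent from all full lists of the other side, the 12 largest limma differences in each direction, the 10 genes with most gained or lost sites, and in each gene list the 5 members with the best-ranked gained and the 5 with the best-ranked lost sites. Nr4a1 was named as the targeted gene. Some genes that these rules select are not reported here. Further genes were chosen after their values were seen. The members and gene lists were chosen with earlier results of these data known. Peak lists hold only peaks past the threshold, so a site without a peak is below that threshold at the depth of the list, not closed. The background level that the deposited fold ratios imply gave the depth.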

Additional observations from a re-analysis of the deposited data

Results flagged for a closer look

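The share of peaks with an EGR match was the single measure, of 13 compared between genotypes, whose LPS difference in WT differed from that in KO at an unadjusted p below 0.05. With all 12 lists reduced to 27429 peaks, the difference between 18 h and 0 h was -0.034 percentage points in WT and -0.132 in KO, so that WT exceeded KO by 0.0984 points (exact permutation test over 400 regroupings, p = 0.025, adjusted p = 0.325). It did not pass the adjustment, and leaving out replicate 1 of KO 18 h gave 0.0851.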

How the results depend on the processing

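The counts of gained and lost sites moved with the definition of a site. With all deposited peaks they were 1592 and 5731, when a site had to be absent from the full lists of the other side 1248 and 2066, and when a peak had to cover 50% of a site 1992 sites were gained. Leaving out 1 list at a time gave 3252 to 4387 gained, 3776 to 4677 lost, 4883 to 6176 higher and 4292 to 6537 lower sites. Fewer lists then had to agree on a gained or lost site, a weaker definition, and these counts were all above the main 3032 and 3208. Some small differences between list shares changed sign: with all deposited peaks promoter (2.87), E-box (0.0818), CRE (0.0649) and EGR (0.00752), with 30000 peaks AP-1 (0.0989) and with a 50 bp motif window GAS (0.0568), in percentage points. Leaving out single lists moved the promoter share between -0.156 and 0.227. The cause of these changes was not tested. Of 50 alternatives to the 4 counts of sites, with those under this weaker definition included, 45 stayed within 1.5 times the main count. Of 147 alternatives to the 17 differences between lists, 139 kept the direction; their exact p could not go below 0.1, so it says nothing about stability. All 254 alternatives to the 24 named shared sites kept the direction and stayed below an adjusted p of 0.05 (limma). The 24 sites were chosen from these same lists for their large differences, and the 12 that ranked higher are gained sites. The result therefore says nothing about their stability. Of 540 alternatives to gene list counts, chosen after seeing the data, 48 moved a count by more than 1.5 times.

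Replicate numbers of the labels did not pair the samples, since deviations from the group means correlated with r of -0.0481, 0.0301 and -0.054 for the 3 numbers and 1 of 6 lists correlated best with its own number. With the replicate number as a block, 5745 sites ranked higher and 5944 lower. Peak lists hold no reads, so weak openings below the threshold at the depth of a list were not detectable.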

Other observations

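Chromosome X was looked at after its values were seen. Peaks on this chromosome made up 1.62, 1.57 and 1.47% of the WT equal-length lists at 18 h and 1.76, 1.8 and 1.8% at 0 h (difference -0.233 percentage points, two-sided exact permutation p = 0.1, the smallest possible). In KO the shares were 1.21, 1.48 and 1.49% at 18 h and 1.67, 1.7 and 1.77% at 0 h (-0.315 points, exact permutation p = 0.1). Of the gained sites 0.923% and of the lost sites 2.84% lay on this chromosome, against 1.71% of all sites. Among 562 shared sites there, 33 (5.87%) ranked higher and 103 (18.3%) lower, where 17.4% and 17.6% did so over all chromosomes. All 12 lists held 5 to 14 peaks on chromosome Y, and the labels give male mice.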
